A study of Mus musculus with 20 samples.

Results

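The interferon-induced proteins with tetratricopeptide repeats (Ifit) and the interferon-induced transmembrane proteins (Ifitm) are 2 families of antiviral effectors. Their genes were chosen by name from the array annotation. Ifit1, Ifit2, Ifit3 and I830012O16Rik, which RefSeq lists as Ifit3b, made up the Ifit genes, and Ifitm1, Ifitm2, Ifitm3 and Ifitm6 the Ifitm genes. They are 8 of the 31093 gene names on the array and have 10 of its 39429 non-control probes. All 10 probes passed the filters on dim and unvarying probes and were among the 18587 probes tested.

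Blood was collected by cardiac puncture 24 h after whole body X-ray exposure, and globin RNA was removed before labelling. Each of 20 single-colour arrays held the RNA of 1 mouse. The groups of 5 were WT C57BL/6 mice given 0 Gy, WT mice given 7 Gy, Il10-/- mice (B6.129P2-Il10tm1Cgn/J) given 0 Gy and Il10-/- mice given 7 Gy. All were male littermates of 8 to 10 weeks from crosses of heterozygotes, and the 0 Gy mice were sham-irradiated. Il10-/- mice lack the anti-inflammatory cytokine IL-10 in every cell and served as a model of inflammatory bowel disease. The comparisons asked how the genes responded to radiation in each genotype, and whether genotype changed their level or their response.

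Cells release type I and type III interferons on sensing foreign or misplaced nucleic acid. Their receptors act through a complex that holds Stat2 and Irf9 and binds the interferon-stimulated response element (ISRE) near the start of target genes. Ifit proteins bind foreign RNA and block its translation, while Ifitm proteins sit in cell membranes and hinder the entry of enveloped viruses. Ifit genes are nearly silent in resting blood cells, whereas several Ifitm genes are also active without interferon in myeloid cells.

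The sequences ahead of the genes are shown first because the Ifit and Ifitm genes are defined as interferon targets through the ISRE. All 8 genes were matched to windows of the RefSeq table (GRCm38.p6) that hold 250 bases before and 50 bases after the annotated RNA start. As the ISRE core, GAAA followed by any 2 bases and a further GAAA was searched on both strands, which reads as a pair of TTTC on the other strand. This core was found in 3.44% of 32851 such windows in the whole table, and in at least 1 window of 3.99% of its 27025 genes. It was found in the windows of 5 of the 8 genes, 3 Ifit genes and 2 Ifitm genes. In the stretches below, read 5′ to 3′ along each gene, capitals mark the ISRE core.
Ifit1, chr19:34640755-34640844, plus strand: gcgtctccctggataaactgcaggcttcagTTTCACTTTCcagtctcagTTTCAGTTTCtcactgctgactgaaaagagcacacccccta
Ifit3, chr19:34583343-34583446, plus strand: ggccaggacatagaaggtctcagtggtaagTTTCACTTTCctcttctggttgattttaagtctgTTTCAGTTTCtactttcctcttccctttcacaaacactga
Ifit3b, chr19:34607739-34607842, plus strand: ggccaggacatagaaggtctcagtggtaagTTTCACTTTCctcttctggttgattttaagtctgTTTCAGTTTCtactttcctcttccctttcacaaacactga
Ifitm2, chr7:140955962-140956037, minus strand: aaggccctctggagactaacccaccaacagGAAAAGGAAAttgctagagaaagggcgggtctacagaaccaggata
Ifitm3, chr7:141010715-141010744, minus strand: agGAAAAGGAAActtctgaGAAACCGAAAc

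The Ifit1 stretch holds cores that begin 104 and 85 bases before the start. The Ifit3 stretch holds the same pair of cores, beginning 156 and 122 bases before its start. The stretch printed for Ifit3b is identical to that of Ifit3 at 104 of 104 bases, and both windows share an unbroken run of 169 bases. The core of Ifitm2 begins 46 bases before the start. Those of Ifitm3 lie inside the RNA, 2 and 19 bases after its first base. No core was found in the windows of Ifit2, Ifitm1 and Ifitm6, which says only that these letters are not there. The letters TTCNNNGAA, the gamma-activated sequence (GAS) of interferon gamma signalling, were found in 8.3% of all windows. A GAS match began 241 bases before the start of Ifit2, 10 bases before that of Ifitm6 and 13 bases after that of Ifitm3, where 3 of its bases lay within the later ISRE core.

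**Figure D1:**
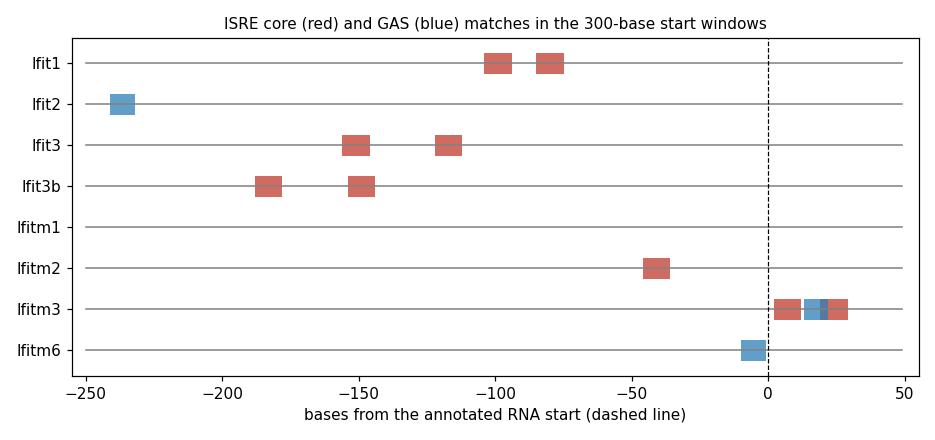
Positions of the ISRE core (red) and GAS (blue) letter matches in the 300-base windows of the 8 genes, on an axis of bases from the annotated RNA start. The paired ISRE cores of Ifit1, Ifit3 and Ifit3b lie 85 to 188 bases before the start, while those of Ifitm3 lie just after it.

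Before the results, the labels and arrays were checked. The Il10 probe was higher in all 10 arrays labelled Il10-/-, at 2.75 ± 0.31 without and 2.71 ± 0.62 with irradiation (mean ± SD, n = 5; log2 signal relative to the array's median probe, the scale of all levels here). None of the 10 WT arrays read this probe well above background, and its means were -1.54 ± 0.45 and -1.85 ± 0.61. This goes against a simple loss of the transcript, and which part of the gene the allele removes is not given in the sources used here, so the genotypes rest on the labels. A slide held 1 array from each of the 4 groups, and there were 5 slides. The weakest array was WT 0 Gy replicate 5, with 29.9% of spots well above background against 34.6% to 57.8% on the others.

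In mice labelled WT, all 5 Ifit probes and Ifitm3 rose after 7 Gy. Thus 6 of the 10 probes were called higher, at p below 0.001 and a false discovery rate under 10% (limma), where 4.48% of all tested probes were called higher. The median log2 difference was at least 2.48 over the Ifit probes and 1.30 over the Ifitm probes, against -0.02 over all probes. For the Ifit median, 1 Ifit3b probe that was not well above background in unirradiated mice was set at its lower bound. Irradiated and unirradiated mice did not overlap at 9 of the 10 probes, against 11.8% of all probes, and Ifitm6 was the exception. With the Il10-/- label, the same 6 probes were called higher, against 3.29% of all tested probes. There the median was at least 2.88 over the Ifit probes, the bound of that probe, and -0.27 over the Ifitm probes, against -0.10 over all. The groups did not overlap at these 6 probes, against 6.13% of all probes. Both responses are plotted for every array and as differences.

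**Figure D2:**
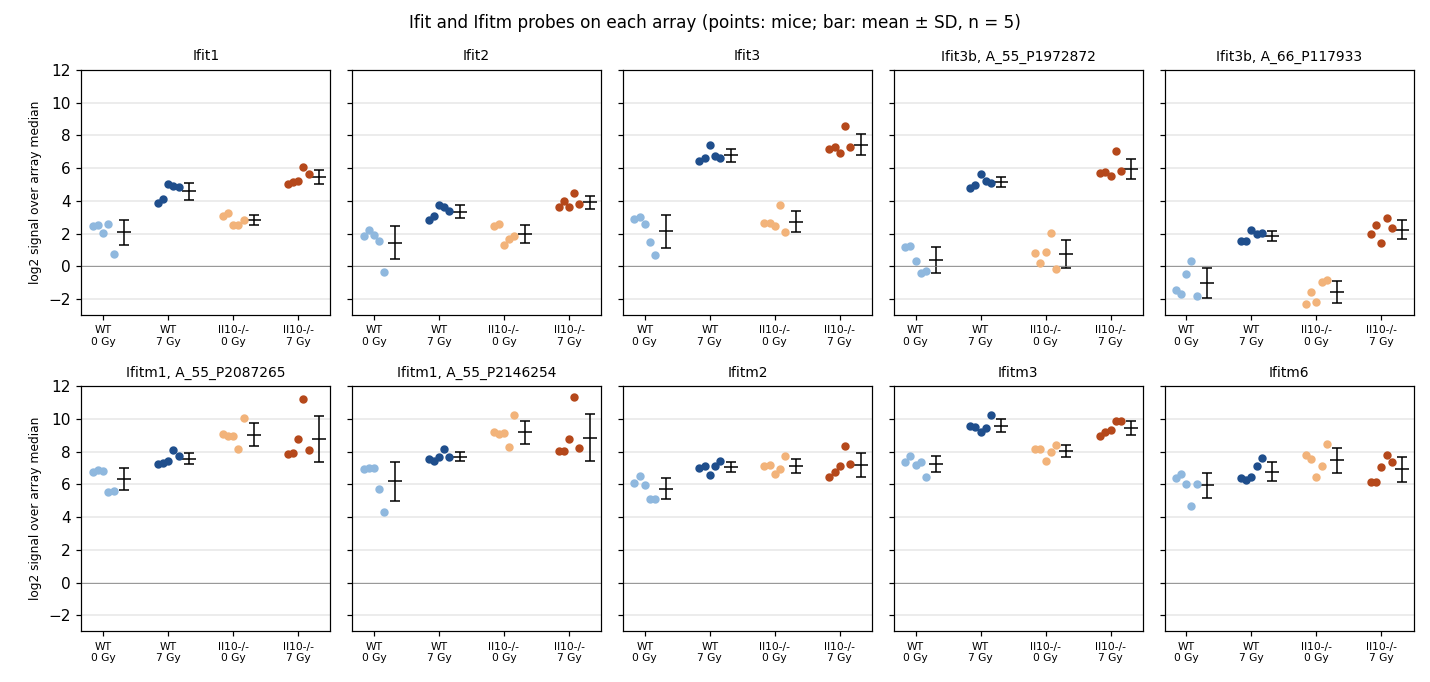
Log2 signal relative to the array median (vertical axis) of the 10 Ifit and Ifitm probes in the 4 groups. Points are mice and the black bars are means with SD (n = 5). The Ifit probes were low without irradiation and higher in every irradiated mouse of both genotypes, while Ifitm1 was already high in unirradiated mice labelled Il10-/-, at 8.14 or more.

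Ifit1, which binds RNA whose cap lacks host methyl marks, stood at 2.48, 2.51, 2.05, 2.6 and 0.78 in the unirradiated mice labelled WT. It stood at 3.89, 4.14, 5.03, 4.93 and 4.84 after 7 Gy. No irradiated mouse reached down to the unirradiated range, and the lowest value came from the weakest array. The difference was 2.48 ± 0.44 (SE), a 5.59-fold rise (limma, adjusted p = 0.00196). For Il10-/-, Ifit1 read 3.05, 3.23, 2.54, 2.54 and 2.85 without irradiation and 5.03, 5.16, 5.24, 6.09 and 5.63 with it. All 5 irradiated mice were again above all unirradiated ones. The difference was 2.59 ± 0.26, or 6.01-fold (limma, adjusted p = 6.44e-05).

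Ifit2, a family member that binds AU-rich RNA, was at 1.84, 2.24, 1.9, 1.52 and -0.33 in unirradiated and 2.83, 3.08, 3.76, 3.61 and 3.4 in irradiated mice labelled WT. The groups did not overlap, although the low value of the weakest array was itself not well above background. The rise was 1.91 ± 0.47, or 3.75-fold (limma, adjusted p = 0.0142). Its unadjusted p lay just inside the threshold of 0.001. Leaving out any 1 irradiated mouse, or unirradiated replicate 1, 3 or 4, put it outside, with differences of 1.80 to 2.03. The Il10-/- arrays of Ifit2 read 2.46, 2.61, 1.31, 1.65 and 1.88 without and 3.61, 3.96, 3.63, 4.5 and 3.79 with irradiation. All irradiated mice were higher, by 1.91 ± 0.30 on average (limma, adjusted p = 0.00124).

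Ifit3 lies in the family cluster on chromosome 19, and its protein joins other Ifit proteins in complexes. Without irradiation it read 2.9, 3.04, 2.6, 1.49 and 0.69 in mice labelled WT, and after 7 Gy 6.45, 6.63, 7.42, 6.73 and 6.6. The gap between the groups, from 3.04 to 6.45, was wider than the whole range of either group. The difference was 4.62 ± 0.47, a 24.6-fold rise that ranked 138 among 18587 probes (limma, adjusted p = 3.19e-05). Among mice labelled Il10-/-, Ifit3 read 2.62, 2.66, 2.47, 3.76 and 2.07 without and 7.16, 7.26, 6.92, 8.6 and 7.26 with irradiation. Replicate 4 was the highest of both groups. The difference of 4.72 ± 0.37, or 26.4-fold, ranked 8 among all probes (limma, adjusted p = 1.16e-05).

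Ifit3b, a near-identical paralog of Ifit3, was measured by 2 probes. The first (A_55_P1972872) read 1.18, 1.22, 0.3, -0.43 and -0.27 in unirradiated and 4.78, 4.97, 5.62, 5.24 and 5.08 in irradiated mice labelled WT. Only 2 of the 5 unirradiated values were well above background, so the rise of 4.74 ± 0.42, 26.7-fold, starts from near the detection limit (limma, adjusted p = 1.34e-05). With the Il10-/- label this probe read 0.79, 0.21, 0.88, 2.06 and -0.19 without and 5.7, 5.78, 5.51, 7.03 and 5.84 with irradiation. The rise of 5.22 ± 0.42, 37.3-fold, ranked 7 among all probes (limma, adjusted p = 1.22e-05). The second probe (A_66_P117933) gave no signal well above background on the 10 unirradiated arrays. After 7 Gy it was at least 3.86-fold higher in the WT comparison and at least 7.35-fold higher in that of Il10-/-. These bounds set the mean of the irradiated group against the dimmest signal that counted as well above background on each unirradiated array. Where the probe's own value was higher, that value was used. The bounds were not tested. The fitted differences were 2.89 (limma, adjusted p = 0.000947) and 3.80 (limma, adjusted p = 4.61e-05). Replicate 3 of the irradiated Il10-/- group, at 1.4, was itself not well above background. The probes of Ifit3 and Ifit3b share no run of 12 or more bases, but RNA of one paralog binding to the probe of the other was not tested.

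**Figure D3:**
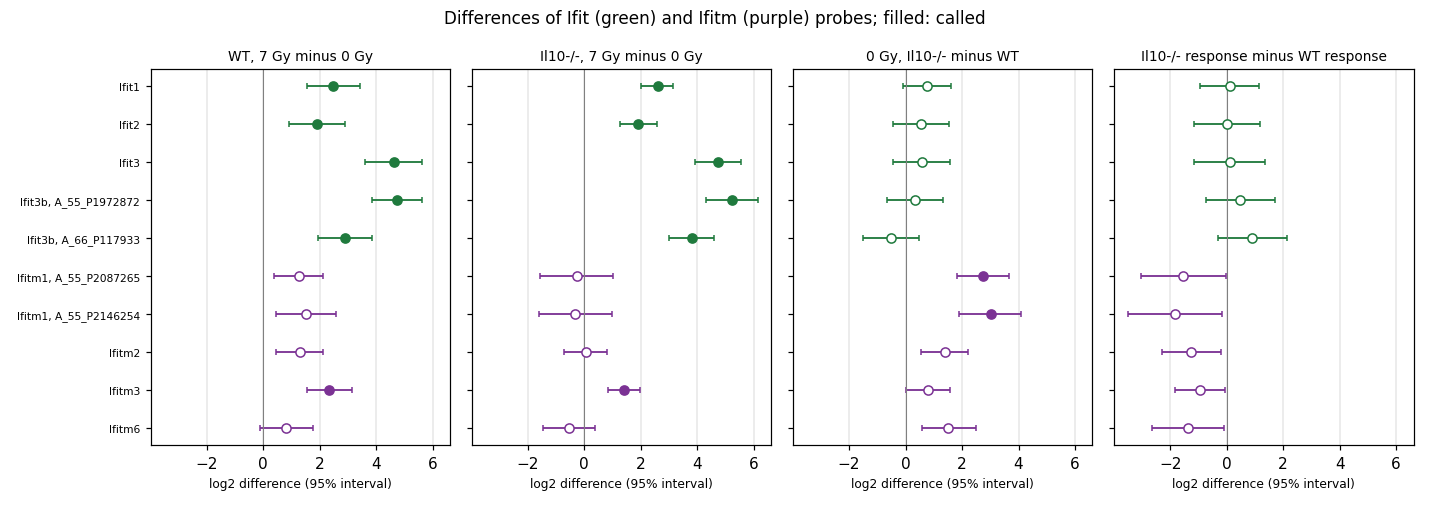
Log2 differences (horizontal axes, points) with 95% intervals of the 10 probes in 4 comparisons. Ifit probes are green, Ifitm probes purple, and filled points were called. Ifit probes rose in both genotypes by 1.91 to 5.22, and both Ifitm1 probes differed between the unirradiated genotypes. Points of A_66_P117933 in comparisons with unirradiated mice are set against signal not well above background.

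Among the Ifitm genes, Ifitm3 rose in both genotypes. Ifitm3 protein sits in endosomal membranes and restricts influenza virus. It read 7.38, 7.76, 7.21, 7.38 and 6.46 in unirradiated and 9.55, 9.51, 9.19, 9.45 and 10.21 in irradiated mice labelled WT. All irradiated mice were higher, by 2.34 ± 0.38 or 5.08-fold (limma, adjusted p = 0.00118). In mice labelled Il10-/- it read 8.16, 8.18, 7.45, 7.98 and 8.41 without and 8.97, 9.2, 9.32, 9.84 and 9.87 with irradiation. The groups did not overlap and differed by 1.40 ± 0.26 or 2.64-fold (limma, adjusted p = 0.00366). Ifitm3 is printed in 10 spots on every array, which gives the spread within an array but not that from RNA isolation, labelling and hybridization. The SD between spots was 0.0371 to 0.0951 on all arrays but the weakest, where it was 0.379. The SD between mice of a group was 0.361 to 0.477, above the SD between spots on all arrays but the weakest. With 1 array per mouse, the SD between mice also holds the spread from those steps.

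Ifitm1, found mainly at the cell surface, has 2 probes. Their last 30 bases are shown because the array files place them on different chromosomes, chr7:148155659-148155718 and chr8:13896764-13896823 (mm9), although they share 54 of 60 bases. Capitals mark the shared part.
A_55_P2146254: CTCAATAAAGTGCACGTGCTGTGActttct
A_55_P2087265: ACTCAATAAAGTGCACGTGCTGTGAaaaaa
The probe placed on chromosome 8 ends in 6 A. Both are read here as Ifitm1, as the files name them. They moved together: their deviations from the group means correlated with r = 0.946 (Spearman rho = 0.953) over 20 arrays (within-group permutation, p = 1e-04 for each, the smallest that 10000 permutations can give; 0.0015 and 0.00225 after adjustment over 45 pairs).

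Ifitm1 was the member that differed between unirradiated mice. Probe A_55_P2146254 read 6.91, 6.98, 6.99, 5.7 and 4.29 with the WT label and 9.22, 9.06, 9.15, 8.25 and 10.23 with the Il10-/- label. No mouse labelled WT reached the lowest labelled Il10-/-. The difference was 3.01 ± 0.52, or 8.03-fold (limma, adjusted p = 0.0158), and 2.53 without the weakest array (limma, adjusted p = 0.0332). Probe A_55_P2087265 differed by 2.73 ± 0.44, or 6.65-fold (limma, adjusted p = 0.00853), and all 5 slides showed the same direction for both. These 2 of 10 probes, which share most of their bases and stand for 1 gene, were called where 0.845% of all tested probes were. None of the 18587 was called lower. The median of all probes was itself 0.36 higher in this comparison, and -0.07 with each array scaled to its 75th percentile, where both Ifitm1 probes were called too.

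The response of Ifitm1 to 7 Gy was called in neither genotype. Probe A_55_P2146254 read 7.52, 7.41, 7.67, 8.15 and 7.67 in irradiated mice labelled WT, all above the unirradiated ones. The difference of 1.51 ± 0.50 was not called (limma, adjusted p = 0.055), nor was the 1.26 ± 0.41 of the other probe (limma, adjusted p = 0.0481). In irradiated mice labelled Il10-/- it read 8.03, 8.01, 8.74, 11.33 and 8.2. Of these, 4 lay within or just below the unirradiated range and replicate 4 stood far above it, so that the mean difference was -0.32 ± 0.60 (limma, adjusted p = 0.732), and -0.94 without replicate 4. The 2 groups given 7 Gy differed by 1.18 ± 0.56 at this probe, with the mice labelled Il10-/- higher on all 5 slides, which was not called (limma, adjusted p = 0.46). Without replicate 4 of the irradiated Il10-/- group it was 0.56.

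Ifitm2, an endosomal relative of Ifitm3, read 6.07, 6.5, 5.94, 5.09 and 5.08 in unirradiated and 7, 7.09, 6.58, 7.11 and 7.4 in irradiated mice labelled WT. The groups did not overlap, but the difference of 1.30 ± 0.39 was not called (limma, adjusted p = 0.0356). Unirradiated mice labelled Il10-/- read 7.13, 7.16, 6.61, 6.94 and 7.76, all above the unirradiated mice labelled WT. That difference of 1.38 ± 0.40 was not called either (limma, adjusted p = 0.161), although it was called with all 4 groups in 1 fit. Together with the Ifitm1 probes, which stand for 1 gene, 3 of the 10 probes did not overlap between the unirradiated genotypes, against 3.98% of all probes. After 7 Gy, mice labelled Il10-/- read 6.43, 6.77, 7.1, 8.32 and 7.22, a difference of 0.05 with a 95% interval from -0.71 to 0.81. In order of group means, Ifitm2 was lowest in unirradiated mice labelled WT, and the other 3 groups, with means from 7.04 to 7.17, overlapped.

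Ifitm6, of the same chromosome 7 cluster, passed the threshold in no comparison. In mice labelled WT it read 6.37, 6.62, 6.01, 4.68 and 6.03 without and 6.4, 6.29, 6.43, 7.12 and 7.6 with irradiation, a difference of 0.82 ± 0.44 (limma, adjusted p = 0.234). In mice labelled Il10-/- it read 7.79, 7.55, 6.44, 7.11 and 8.44 without and 6.15, 6.13, 7.08, 7.8 and 7.38 with irradiation, a difference of -0.56 ± 0.42 (limma, adjusted p = 0.374). Between unirradiated genotypes it differed by 1.52 ± 0.46, higher in mice labelled Il10-/- on all 5 slides (limma, adjusted p = 0.177).

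No Ifit probe was called between the genotypes. Between unirradiated mice the 4 Ifit probes other than A_66_P117933 differed by 0.35 to 0.76, with adjusted p-values of 0.34 to 0.65 (limma). For A_66_P117933 the fit gave -0.53 (limma, adjusted p = 0.495), from values that were not well above background on any of these arrays. Between irradiated mice all 5 were higher with the Il10-/- label by 0.38 to 0.86, and none was called (limma, adjusted p = 0.391 to 0.643). With another background correction, normexp, 4 of them were at -0.04 to -0.19, while the median of all probes went from 0.08 to -0.5. In the main fit of that comparison 0 of the 10 members were called, and 0.00538% of all probes, a single one, were called. An unadjusted p under 0.05 (limma) was found for 2 members and for 2066 of the 18587 probes. Ifit1 was the 1 probe that did not overlap between the irradiated genotypes, by a gap of 0.0035 that is lost in rounding, against 2.25% of all probes.

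The difference of the responses, Il10-/- minus WT, was tested directly as an interaction. It was 0.01 to 0.48 for the 4 Ifit probes other than A_66_P117933, and for Ifit3 0.10 with a 95% interval from -1.17 to 1.37. A_66_P117933 stood at 0.91 (limma, adjusted p = 0.699), with unirradiated values that were not well above background. All 5 Ifitm probes, which stand for 4 genes, had values below 0, a lower response with the Il10-/- label. The value was -1.83 for Ifitm1 (A_55_P2146254, 95% interval -3.50 to -0.15) and -1.25 for Ifitm2 (-2.30 to -0.20). It was -0.94 for Ifitm3 (-1.83 to -0.05) and -1.38 for Ifitm6 (-2.65 to -0.11). On single slides, Ifitm2 and Ifitm3 had the lower response on 5 of 5, and Ifitm1 and Ifitm6 on 4 of 5. None of the 10 was called: the adjusted p was 0.688 for each Ifitm probe (limma). Over all 18587 probes 0% were called, while 5 members and 1301 probes had an unadjusted p under 0.05. Without the weakest array 2 members did, Ifitm2 and Ifitm6, and Ifitm1 (A_55_P2146254) was at -1.36 and Ifitm3 at -0.75, and the intervals of these Ifitm1 and Ifitm3 probes no longer excluded 0. The median interaction of all probes was -0.20, against -1.38 over the Ifitm probes. Beside it, the neutrophil precursor markers had a median interaction of -1.79 over 8 genes and the mature neutrophil markers of -0.57 over 11. The median was -5.48 for hepatocyte, -0.81 for monocyte, -0.52 for B cell and -0.41 for erythroid markers, and 1.89 for heart muscle markers. It was -0.25 for plasmacytoid dendritic cell, -0.22 for NK cell, -0.11 for platelet and -0.09 for T cell markers. None of the marker genes was called, and a link to the Ifitm values was not tested.

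Other genes of the interferon pathway were listed by role. Of 15 ligand genes on the array, 8 were tested and none was called in either response, with median differences of -0.33 for WT and -0.11 for Il10-/-. Of 12 genes for receptors and signal transducers, 7 were tested and none was called. Stat2, which is part of the ISRE-binding complex, differed by 1.28 ± 0.43 and 0.94 ± 0.26 (limma, adjusted p = 0.0548 and 0.0231). Irf9, its DNA-binding part, varied too little between arrays to be tested. Irf9 was at 4.76 ± 0.86 before and 5.73 ± 0.11 after for WT, and at 5.39 ± 0.27 before and 6.03 ± 0.42 after for Il10-/- (mean ± SD, n = 5).

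Of 7 tested interferon regulatory factors, Irf8, needed for the development of B cells and dendritic cells, fell by 1.78 on the log2 scale in mice labelled WT and by 2.02 in mice labelled Il10-/- (limma, adjusted p = 0.00759 and 0.000338). Irf7, the amplifier of interferon production, rose by 1.56 ± 0.31 in mice labelled Il10-/- (limma, adjusted p = 0.00472), and its 1.88 ± 0.53 in mice labelled WT was not called (limma, adjusted p = 0.0271). Of 7 tested inhibitors of the pathway, Usp18 rose in both genotypes, by 2.47 ± 0.38 and 2.44 ± 0.27 (limma, adjusted p = 9e-04 and 0.000135). Usp18 removes the ubiquitin-like protein Isg15 from its targets. Isg15 itself did not pass: the brighter of its probes (A_55_P2103698) averaged 10.66 ± 0.72 before and 10.32 ± 0.47 after irradiation for WT, and 10.91 ± 0.66 before and 10.15 ± 0.46 after for Il10-/- (mean ± SD, n = 5). The differences were -0.33 ± 0.42 and -0.76 ± 0.34 (limma, adjusted p = 0.656 and 0.131), both below 0.

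Of 47 other interferon-stimulated genes tested, 25 rose and none fell in mice labelled WT, and 22 rose and 1 fell in mice labelled Il10-/-. Their median differences were 1.84 and 1.23, where 4.48% and 3.29% of all tested probes were called higher. The largest rises in mice labelled WT were those of Bst2, which tethers budding viruses, at 4.07 ± 0.48, and Oas1a, an activator of RNA decay, at 3.76 ± 0.48. In mice labelled Il10-/- they were those of Ifi44, at 3.21 ± 0.32, and Ifi27l2a, at 3.06 ± 0.31 (limma, adjusted p = 6.44e-05 and 5.91e-05). Trim25, a ubiquitin ligase of RNA sensing, was the 1 that fell, by 1.16 on the log2 scale. Among unirradiated mice none of these 47 genes was called. Ifnlr1, a receptor chain for type III interferon, was the only one of the pathway genes called there. It was 2.67 ± 0.54 higher in mice labelled Il10-/- (limma, adjusted p = 0.0345). Of all tested probes 0.845% were called higher in that comparison. The pathway lists are plotted beside the members.

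**Figure D4:**
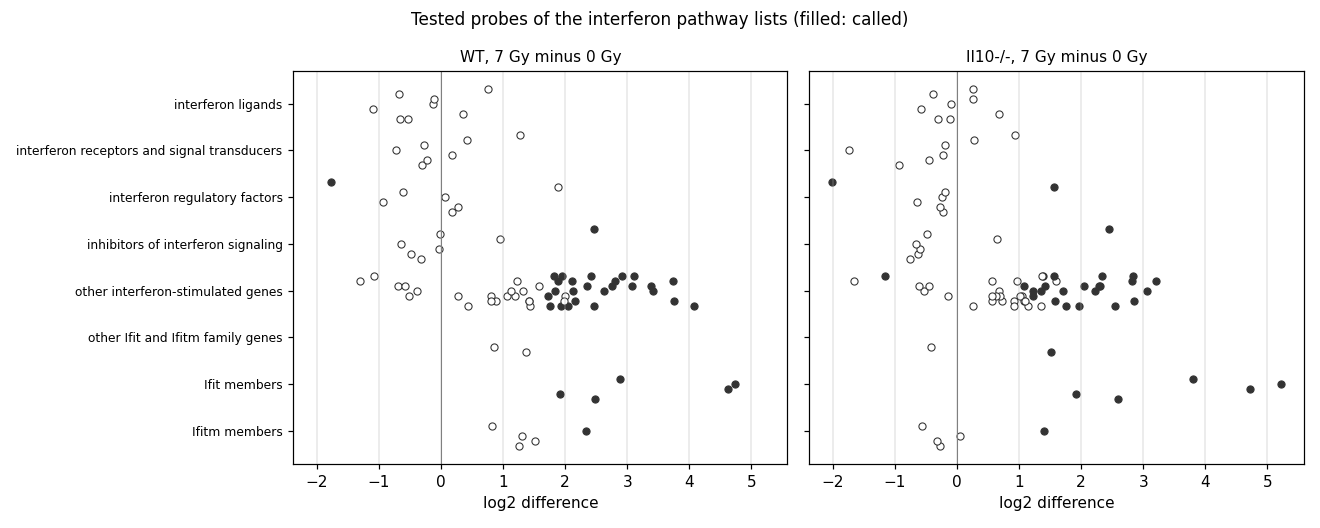
Log2 differences between 7 Gy and 0 Gy (horizontal axes) of every tested gene in the interferon pathway lists and of the Ifit and Ifitm members, in mice labelled WT (left) and Il10-/- (right). Each point is 1 probe and filled points were called. Of the 47 other interferon-stimulated genes 25 were called higher in mice labelled WT and 22 in mice labelled Il10-/-, where 1 was called lower, and none of the 8 ligand genes was called.

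Neighbouring genes were counted within 100 kb of the member probes. Of all tested probes 4.48% were called higher in the WT response. In the Il10-/- response 3.29% were called higher and 5.87% lower. On chromosome 19, of 3 tested neighbours, Gm14446, a further Ifit family gene that RefSeq names Ifit1bl1, rose by 1.51 ± 0.26 in mice labelled Il10-/- (limma, adjusted p = 0.00253). In mice labelled WT it differed by 1.37 ± 0.50 (limma, adjusted p = 0.0777). On chromosome 7, of 10 tested neighbours, Sirt3, a mitochondrial deacetylase, rose by 1.94 ± 0.44 in mice labelled WT (limma, adjusted p = 0.00839) and Nlrp6, an inflammasome sensor, rose by 1.64 ± 0.29 in mice labelled Il10-/- (limma, adjusted p = 0.00259). Around the chromosome 8 placement of the Ifitm1 probe, 4 neighbours were tested, of which Coprs rose in mice labelled WT and Tdrp fell in mice labelled Il10-/-. None of these neighbours was called between the genotypes or in the interaction.

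The genes whose pattern over the 20 arrays was most like that of Ifit3 were Ifi27l2a and Oasl1 (Pearson r = 0.981 each), Usp18 (0.979), Ccng1 (0.978) and Oas1a (0.965). Those most like Ifitm3 were Qpctl (0.988), Cdkn1a, Ninj1 and Oas1f (0.971 each) and Phlda3 (0.963). These values describe 20 arrays that share their groups. With the group means removed, r was 0.856 for Ifi27l2a and 0.69 for Ccng1 against Ifit3, and 0.91 for Qpctl against Ifitm3.

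The deviations of single mice from their group were compared between members. Over 20 arrays the deviations from the group means gave a median r of 0.728 over the 10 pairs of Ifitm probes, 0.404 over the 10 Ifit pairs and 0.37 over the 25 mixed pairs, arrays sharing their scaling. The order of these medians was not tested. An adjusted p under 0.05 for r (within-group permutation) was found for 7 of the 10 Ifitm pairs, 3 of the 10 Ifit pairs and 7 of the 25 mixed pairs. The highest r of a mixed pair was 0.672, for Ifit2 with Ifitm1 (A_55_P2146254), while Ifit1 with Ifit3 had 0.574. Ifit1 and Ifit2 had r = 0.886 and rho = 0.832 (within-group permutation over 20 arrays, p = 1e-04 and 3e-04, adjusted over 45 pairs 0.0015 and 0.0027), and r = 0.772 without the 2 arrays farthest from the median. Ifit3 and the brighter Ifit3b probe had r = 0.896 and rho = 0.862 (within-group permutation, p = 2e-04 and 1e-04, adjusted 0.0018 and 0.00225), and r = 0.912 without the 2 farthest arrays. The dimmer Ifit3b probe had r = 0.215 with Ifit3 (within-group permutation, p = 0.513, adjusted 0.574) and r = -0.00603 with the brighter one (within-group permutation, p = 0.986, adjusted 0.986). Ifitm2 and Ifitm6 had r = 0.822 and rho = 0.821 (within-group permutation, p = 1e-04 and 2e-04, adjusted 0.0015 and 0.00225), and r = 0.799 without the 2 farthest.

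The blood cell markers moved as well, and in whole blood fewer cells of a type and less RNA per cell cannot be told apart. Between unirradiated mice 0.845% of all tested probes were called higher with the Il10-/- label. Beside the Ifitm1 difference, 5 of 11 mature neutrophil markers and 4 of 8 neutrophil precursor markers were called higher in mice labelled Il10-/-. So were 2 of 9 tested hepatocyte markers and 1 of 10 monocyte markers, and no marker of the other lists was called. The median differences of these lists were 1.90, 2.14, 3.93 and 0.68, in that order. The mean level of the mature neutrophil list ran from 6.80 to 8.30 in mice labelled Il10-/- and from 4.92 to 6.33 in mice labelled WT. After 7 Gy in mice labelled Il10-/-, 1 of 8 precursor markers was called lower, where 5.87% of all tested probes were. The level of the precursor list went from between 3.51 and 5.96 to between 2.50 and 4.06. Beside the responses to 7 Gy, 8 of 9 tested B cell markers fell in each genotype. Of all tested probes 2.32% were called lower for WT and 5.87% for Il10-/-. The B cell list levels were 3.91 to 5.59 before and 1.60 to 2.33 after irradiation for WT. For Il10-/- they were 4.07 to 5.18 before and 1.30 to 1.70 after. The level of the hepatocyte list lay between -0.16 and 1.70 before and between 2.64 and 11.03 after irradiation with the WT label, and 6 of its 9 tested genes were called higher. With the Il10-/- label it lay between 1.91 and 9.34 before and between 1.32 and 9.24 after, and none of the 9 was called. The heart muscle list lay between -1.25 and 1.51 before and between -0.42 and 6.01 after with the WT label. With the Il10-/- label it went from between -1.42 and 2.34 to between 0.98 and 5.85, and all 5 tested genes were called higher. The platelet list lay between 6.98 and 8.51 before and between 8.82 and 9.91 after with the WT label, with a median difference of 1.28 and none of 8 genes called. The erythroid list lay between 6.45 and 8.19 before and between 5.01 and 6.29 after with that label, and 4 of its 9 genes fell. Monocyte and plasmacytoid dendritic cell levels overlapped between all 4 groups. The part of these cells in the Ifit and Ifitm results was not tested.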

How the data were processed

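Sample records gave the groups and replicate numbers. The deposited array files are scanner output of Agilent Feature Extraction (10.7 per the labels, 12.0.2.2 per the file headers) and hold an intensity for every spot, background-subtracted by that software. A deposited series table of the authors' log2 values served as an alternative. Positions in the array files are mm9.

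On the log2 scale, spots that the software marked as non-uniform were dropped, remaining spots were averaged per probe, and each array was centred on the median of its non-control probes. A probe was removed where most of its spots were non-uniform or indistinguishable from background on at least 25% of arrays. So was one that lay at least 1.5-fold from its median on fewer than 20% of the arrays. The 18587 probes left, of 15749 gene names, were fitted for each comparison on its 2 groups, and the interaction on all 4, with limma 3.58.1 in R 4.3.3. A probe was called at p below 0.001 and a Benjamini-Hochberg false discovery rate under 10%; rates are adjusted over all tested probes. The array number limits the precision. In simulated data set up as the WT response with 18587 probes, 50 probes were shifted at each size. Of those shifted by 1, 2 and 3 on the log2 scale, 4%, 62% and 94% were called. In simulated data of the interaction, 2%, 40% and 78% were. Whether the simulation carries the spread of each group was not tested, and these percentages describe the simulated data only.

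In the gene lists each gene was represented by its brightest tested probe. The members and gene lists were chosen with earlier results of these data known. Named were all member probes, fixed genes of the pathway (Irf7, Irf9, Stat2, Usp18 and Isg15; a further one is not reported here), the 2 largest called rises and falls of each pathway list, the 5 genes most like Ifit3 and Ifitm3, called neighbours, and Il10. Marker lists covered mature neutrophils, neutrophil precursors, monocytes, B, T and NK cells, plasmacytoid dendritic cells, platelets, erythroid cells, hepatocytes and heart muscle. After 7 Gy in mice labelled WT, 0 of 9 T cell genes rose and 2 fell, and 0 of 8 NK cell genes were called. Of 8 platelet genes 0 were called, and of 9 erythroid genes 0 rose and 4 fell. In mice labelled Il10-/-, 0 T cell genes rose and 3 fell, and 0 erythroid genes rose and 6 fell. There 0 NK cell and 0 platelet genes were called. Of 10 monocyte genes, 2 rose and 1 fell in mice labelled WT and 1 rose and 3 fell in mice labelled Il10-/-. Of 5 tested plasmacytoid dendritic cell genes none was called. Pairing by slide was checked by correlating deviations from group means, and no pair of groups was above 0.1 on all 5 slides. WT 0 Gy with WT 7 Gy was above it on 4 (mean 0.223), as was WT 7 Gy with Il10-/- 7 Gy (mean 0.414). The other pairs of groups were on 2. The slides thus share some variation. The main fits hold no block, as the methods of the study name none, and fits with one are given below. Each array came from a different mouse, so p-values measure the spread between mice together with that from RNA isolation, labelling and hybridization. In the main fits that spread also holds the variation between slides.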

Additional observations from a re-analysis of the deposited data

Results flagged for a closer look

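In each group of 5 arrays the highest and lowest values of the 10 probes were checked for a gap to the next array that is large for the range of the group (Dixon's test). Of 40 such groups 6 had one, where chance gives about 1 in 20. Replicate 4 of the irradiated Il10-/- group was the highest of its group at 9 of the 10 probes and had such a gap at 4. It read 8.6 for Ifit3 with the next array at 7.26, 7.03 for Ifit3b (A_55_P1972872) with the next at 5.84, and 11.22 and 11.33 for the Ifitm1 probes A_55_P2087265 and A_55_P2146254 with the next at 8.78 and 8.74. Without this array the Il10-/- responses were 4.43 for Ifit3, 4.96 for Ifit3b, and -0.88 and -0.94 for the Ifitm1 probes, and the interactions of the Ifitm1 probes were -2.14 and -2.44. Replicate 3 of the irradiated WT group read 7.42 for Ifit3 with the next array at 6.73. The weakest array, WT 0 Gy replicate 5, read -0.33 for Ifit2 with the next at 1.52, and without it the WT response of Ifit2 was 1.47 and was still called.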

How the results depend on the processing

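The counts of called members, 6 in either response, 2 between the unirradiated and 0 between the irradiated genotypes and 0 in the interaction, stayed within 1.5 times of themselves under all alternatives but the normexp background correction. With normexp, 0 members were called in the Il10-/- response and 0 between the unirradiated genotypes, and 0 of all probes were called there. Normexp was fitted on arrays of which 8 hold 1 to 19 spots with a local background over 4 times the array's median, and the spread of its values (interquartile range) was down to 0.07 on such arrays, against 0.41 or more on the others. With the local background held at 4 times the median, an alternative chosen after seeing the data, the spread was 0.53 or more, and 3 members were called in the Il10-/- response and 1 between the unirradiated genotypes. In the WT response 4 were called under either form. With normexp the Ifitm2 response in Il10-/- was -0.27 (-0.24 with the held background), against medians of -0.32 and -0.37 over all probes. Between irradiated genotypes normexp gave Ifit1 -0.04, Ifit2 -0.12, Ifit3 -0.19, Ifit3b (A_55_P1972872) -0.08, Ifitm2 -0.72 and Ifitm6 -0.72. The median of all probes was -0.5 there. In the interaction normexp gave Ifit1 -0.35, Ifit2 -0.33, Ifit3 -0.59 and Ifit3b -0.1, against a median of -1.01 over all probes. Quantile normalization gave Ifit2 -0.03. None of these values was called.

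Without any single array, 5 to 6 members were called in the WT response, 6 in the Il10-/- response, 2 between unirradiated genotypes and 0 in the others. Differences that changed sign were small. Ifitm2 ran from -0.24 to 0.24 in the Il10-/- response and from -0.16 to 0.32 between irradiated genotypes, where Ifitm3 ran from -0.25 to 0.02 and Ifitm6 from -0.08 to 0.35. In the interaction Ifit1 ran from -0.06 to 0.43, Ifit2 from -0.19 to 0.45 and Ifit3 from -0.19 to 0.46. The Ifitm interactions stayed below 0 under every alternative and without any 1 array, from -0.52 to -3.08. The -0.52 was Ifitm3 with quantile normalization, where the median of all probes was -0.1. The -3.08 was Ifitm1 (A_55_P2146254) with normexp, where that median was -1.01.

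With the replicate number as a block, which here is the slide, 6, 6, 2, 0 and 0 members were called and no member changed its call, while the calls over all probes went from 157 to 384 between unirradiated genotypes. Over all probes, the WT response had 1263 calls, 2119 with all groups in 1 fit, 261 with normexp, 333 with the held background and 2712 at a false discovery rate under 5% alone, where 8 members passed. The Il10-/- response had 1702, against 900 with the held background and 4053 at that rate. Between unirradiated genotypes, the 157 became 43 with 75th percentile scaling, 81 with scaling to the reference array, 25 with quantile normalization, 57 in the series table, 73 without the filter on dim probes, 5 with the held background and 76 at a rate under 5% alone. The 75th percentile moved the median of all probes from -0.02 to -0.28 in the WT response and from -0.20 to 0.12 in the interaction. Signal over background limits the Ifit3b probes in unirradiated mice, and Ifit2 and Ifit3 on 1 unirradiated WT array each.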
